A study of Mus musculus with 18 samples.

Results

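Colon RNA of 6 sham samples was compared within the group, between the 3 libraries of highest and the 3 libraries of lowest interferon tone. Interferon tone is the sum of log2(TPM + 1) over Isg15, Ifit1, Rsad2 and Oasl2, 4 genes that interferons induce strongly, where TPM is the share of transcripts, scaled to a total of 1000000 per library. The 6 libraries were ranked by this sum, and they make up 6 of the 18 libraries of the series. The sets are defined by measured values and are not groups of the study, so what differs between them is given as a description with no test. The only tests are on the other 12 libraries, which the ranking did not use.

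All 18 samples were mouse colon tissue taken on day 2 after the start of the colitis model, with 6 samples per group. Sham mice had no colitis. The vehicle group was given vehicle after colitis had been set off with TNBS, a hapten used to inflame the rodent colon acutely. The ISM012-042 group had the same TNBS colitis and was given ISM012-042, a PHD inhibitor that stays in the gut, as the series title has it. PHD enzymes are prolyl hydroxylases, which target hypoxia-inducible factor for breakdown. The labels used here name no strain, age, dose or sham procedure. They also do not tie each sample to its own mouse, so any p-value reflects the spread among samples, which may be technical. TPM values keep no trace of how deeply a library was sequenced, so its depth is unknown and counting error is not given. Genes with a TPM of at least 1 numbered 13507 to 13634 in the high-tone libraries and 13120 to 13747 in the low-tone libraries. The tissue label was checked on Muc2, the main goblet cell mucin, at 443 to 2213 TPM in sham, and on Slc26a3, the chloride exchanger of colon epithelium, at 725 to 1888 TPM. The neutrophil gene S100a8 lay at 0.508 to 9.85 TPM in sham and at 73.8 to 12002 TPM in vehicle.

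Interferons are secreted cytokines that put cells into an antiviral state. Type I and type III interferons signal through separate receptors that share the kinases JAK1 and TYK2 and activate a transcription factor complex with STAT2 and IRF9, which binds interferon-stimulated response elements in DNA. Interferon gamma, the type II interferon, acts through DNA elements called gamma-activated sites. In the gut, epithelial cells respond mainly to type III interferons and cells of the lamina propria mainly to type I. A low level of interferon-stimulated genes is known in gut tissue without infection.

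The response element has a core that can be searched for as GAAANNGAAA on both strands. Of the 68 genes described below as higher in the high-tone libraries for which RefSeq gave a promoter window, 28 held this motif between 250 bases before and 50 bases after the start, or 41.2%. Among all 10585 genes tested that had a window it was 3.83%, and among all 32851 windows it was 3.44%. Of 187 genes whose high-tone libraries all lay below the low-tone libraries, 5 held it, or 2.67%. The gamma-activated type TTCNNNGAA, which reads the same on both strands, stood in 12 of the 68 windows, or 17.6%, against 8.47% of all genes tested and 8.02% of the lower genes. The motifs overlapped each other in 24 windows of the whole table. A match describes letters in the window and not a bound site, and a window without a match says only that these letters are not there.

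For 5 genes the 250 bases before a transcript start are shown 5′ to 3′ on the strand of the gene, with GAAANNGAAA or its reverse complement in capitals. The start is the one that the RefSeq promoter windows on GRCm38.p6 use. For Ifit3 and Ifit3b it lies inside the gene's span, which begins at 34583119 and 34607530 on chromosome 19, so these windows lie within the annotated gene. The 5 genes are Isg15 from the ranking (chr4:156200819-156201068, minus strand), the near-identical neighbours Ifit3 (chr19:34583279-34583528, plus strand) and Ifit3b (chr19:34607707-34607956, plus strand), the signalling gene Stat2 (chr10:128270248-128270497, plus strand), and Reg3b (chr6:78370635-78370884, plus strand), which had the largest difference between the sets.
Isg15: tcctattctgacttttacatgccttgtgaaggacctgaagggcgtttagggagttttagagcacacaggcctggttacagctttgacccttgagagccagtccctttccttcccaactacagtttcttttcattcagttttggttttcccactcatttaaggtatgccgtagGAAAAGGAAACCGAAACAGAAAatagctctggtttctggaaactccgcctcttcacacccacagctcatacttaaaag
Ifit3: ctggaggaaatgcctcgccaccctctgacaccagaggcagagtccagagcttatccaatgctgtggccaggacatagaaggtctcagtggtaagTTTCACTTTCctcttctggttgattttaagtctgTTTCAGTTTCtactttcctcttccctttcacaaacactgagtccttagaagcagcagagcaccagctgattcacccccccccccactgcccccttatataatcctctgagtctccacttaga
Ifit3b: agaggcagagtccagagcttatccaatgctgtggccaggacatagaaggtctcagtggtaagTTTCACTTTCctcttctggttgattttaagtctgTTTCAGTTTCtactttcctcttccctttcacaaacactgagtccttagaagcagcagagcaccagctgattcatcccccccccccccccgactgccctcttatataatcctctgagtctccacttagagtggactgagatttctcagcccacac
Stat2: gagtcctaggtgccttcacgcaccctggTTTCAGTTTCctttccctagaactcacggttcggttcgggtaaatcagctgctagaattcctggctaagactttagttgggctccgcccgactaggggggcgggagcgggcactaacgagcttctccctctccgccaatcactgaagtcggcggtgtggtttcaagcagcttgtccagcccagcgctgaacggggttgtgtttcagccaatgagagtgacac
Reg3b: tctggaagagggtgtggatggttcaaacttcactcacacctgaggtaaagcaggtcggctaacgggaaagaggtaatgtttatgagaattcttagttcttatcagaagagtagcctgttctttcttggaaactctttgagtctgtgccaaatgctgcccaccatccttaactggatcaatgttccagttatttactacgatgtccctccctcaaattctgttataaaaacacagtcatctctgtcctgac
The window of Isg15 held 3 overlapping matches that begin 78 bases before that start. The windows of Ifit3 and Ifit3b each held 2 matches within a shared stretch, beginning 156 and 188 bases before that start. Stat2 held 1 match that begins 222 bases before that start. The window of Reg3b held no GAAANNGAAA but held TTCNNNGAA.

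The genes of the ranking covered a wide range among the sham samples. Isg15 (chr4:156199424-156200818), a ubiquitin-like protein that is conjugated to other proteins, stood at 1267 TPM in sham 2, 706 in sham 5 and 585 in sham 1, and at 285 in sham 6, 75.3 in sham 3 and 53.2 in sham 4. Ifit1 (chr19:34640889-34650009), which binds viral RNA, stood at 541, 396 and 268 TPM in the same order of high-tone libraries and at 158, 29.0 and 32.9 in the low-tone ones. Rsad2 (chr12:26442743-26456452), the antiviral enzyme viperin, stood at 154, 132 and 85.3 TPM against 34.8, 13.4 and 12.8. Oasl2 (chr5:114896926-114912245), of the oligoadenylate synthetase family, stood at 657, 497 and 440 TPM against 311, 70.7 and 87.5. Sham 2 was highest in each of the 4 genes. Sham 6 lay above sham 3 and sham 4 in each of them. These values chose the sets, so they support nothing further.

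**Figure D1:**
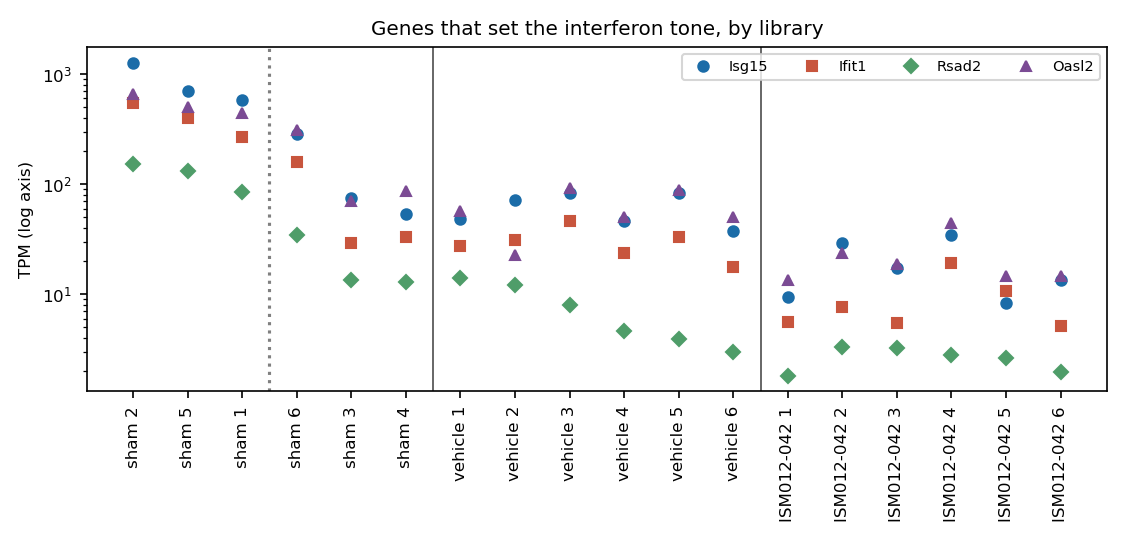
TPM on a log axis of the 4 genes that set the interferon tone, for 18 libraries. Sham libraries are ordered by tone, the dotted line divides the 3 high from the 3 low, and solid lines divide the groups. Isg15 falls from 1267 TPM in sham 2 to 53.2 TPM in sham 4, and lies between 37.4 and 83.7 TPM in vehicle.

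The summed tone was 36.0 in sham 2, 34.1 in sham 5 and 32.5 in sham 1, the last one inside the high set. It was 28.9 in sham 6, the first one outside, then 21.2 in sham 3 and 21.1 in sham 4. Sham 6 was therefore nearer to sham 1 than to the other low-tone libraries, and the low set is not a uniform one. A tone taken over 46 antiviral and oligoadenylate synthetase genes gave the same sets. In the colitis libraries the summed tone was 17.2 to 21.7 in vehicle (median 19.9) and 11.5 to 16.9 in ISM012-042 (median 13). Only vehicle 3, at 21.7, lay above sham 3 and sham 4, and the other vehicle libraries lay below every sham library. Every ISM012-042 library also lay below every sham library.

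Of 14125 genes tested beside the 4 of the ranking, 91 were higher in the high-tone libraries, or 0.644%. A gene counted as higher or lower where the sets of 3 did not overlap and their means differed by at least 1 on the log2(TPM + 1) scale. That scale understates differences of low genes. Under the same rule 1 gene was lower, or 0.00708%. Without the minimum difference 691 genes were higher (4.89%) and 243 lower (1.72%). The median difference over all genes tested was 0.03, and over the 91 genes it was 1.43, with 27 genes at 4-fold or more. The counts depend on single libraries: 237 genes were higher and 60 lower without sham 6, and 161 higher and 14 lower without sham 1. Of the 91 genes, 59 belonged to lists of interferon ligands, receptors, signalling, sensors, effectors and antigen presentation, and 32 did not. None of the 59 was a ligand or a receptor, since no ligand passed the filter and no receptor counted as higher. All 38 gene lists, of which these are a part, held 416 of the genes tested. In bulk tissue, fewer cells of a type and less RNA per cell cannot be told apart.

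The 91 genes were chosen so that all low-tone libraries lay below all high-tone libraries, and only the order inside each set is described. The same counts over all genes tested are not given here. Sham 2 was highest in 83 of them, sham 1 in 5 and sham 5 in 3. Sham 6, which the choice of genes placed below the high set, lay above both other low-tone libraries in 75. Sham 4 was lowest in 48, sham 3 in 37 and sham 6 in 6. The 4 genes of the ranking also had sham 2 highest and sham 6 above sham 3 and sham 4. Nothing further is therefore read from this order.

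The interferon genes themselves were scarce. Of 19 interferon ligands in the table, none reached the filter of 1 TPM in 6 libraries, and 14 were listed at 0 in all 18 libraries, among them all interferon alpha genes of the list. The type III ligand Ifnl3 stood at 2.46 TPM in sham 2, 0.556 in sham 5 and 1.18 in sham 1, and was listed at 0 in sham 6, sham 3 and sham 4. Its relative Ifnl2 stood at 1.64, 0.223 and 0.311 TPM in the same high-tone libraries and at 0.537 in sham 6, and was listed at 0 in sham 3 and sham 4. Values above 0 for these type III genes thus occurred in all 3 high-tone libraries and in 1 low-tone library. Among the 12 colitis libraries, Ifnl2 was above 0 in 1 (0.484 TPM) and Ifnl3 in 2 (0.401 and 0.218 TPM). Ifnb1, the type I interferon beta, was above 0 only in sham 2, at 0.164 TPM. Ifng, the gene of interferon gamma, lay between 0 and 0.220 TPM in sham, with its highest value in sham 3. With the depth unknown, the precision of values this low is unknown, and they were not tested.

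**Figure D2:**
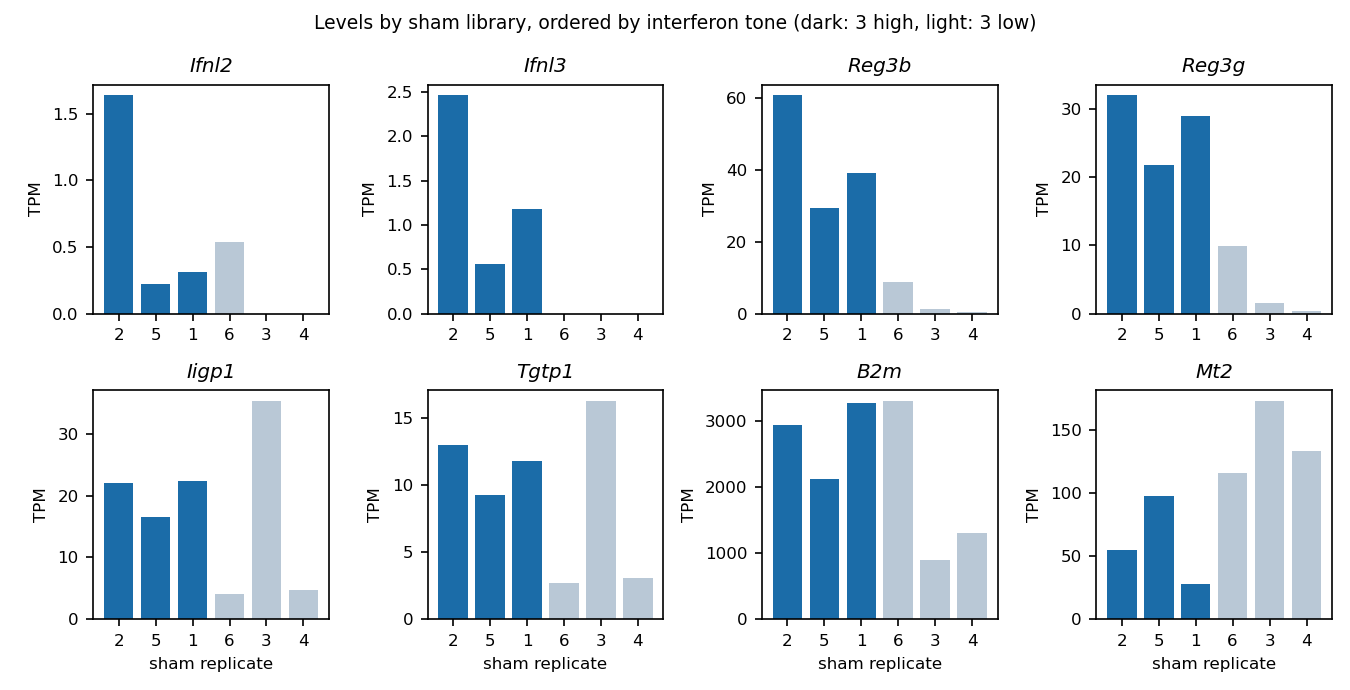
TPM of 8 genes in each sham library, with libraries ordered by interferon tone from left to right, dark bars for the 3 high-tone and light bars for the 3 low-tone libraries. Ifnl3 is above 0 in the dark bars only, while its relative Ifnl2 is also above 0 in sham 6, a low-tone library. Iigp1 and Tgtp1 are highest in sham 3, a low-tone library, and B2m is highest in sham 6.

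Receptors for these ligands differed little between the sets. All 6 receptor genes passed the filter, their median difference was -0.02, and no receptor gene had sets that were apart. Ifnlr1, the specific chain of the type III receptor, stood at 8.04, 6.46 and 6.60 TPM in sham 2, 5 and 1 and at 7.98, 7.36 and 9.97 in sham 6, 3 and 4. Ifnar1, a chain of the type I receptor, stood at 14.7, 14.2 and 17.8 TPM against 18.3, 11.5 and 20.0. Both ranges overlap, with the highest value of each gene in sham 4.

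Of 14 genes for JAK kinases, STAT proteins and interferon regulatory factors, 3 were higher, where 0.644% of all genes tested were. Among the 3 were Irf7 and Stat2. Irf7, which amplifies interferon production, stood at 638, 493 and 552 TPM in sham 2, 5 and 1 and at 401, 145 and 149 in sham 6, 3 and 4, a difference of 1.44 ± 0.49 (log2, SE, n = 3 per set). Stat2 stood at 98.8, 76.1 and 66.2 TPM against 41.5, 26.3 and 21.7, a difference of 1.43 ± 0.32. In Irf9, a DNA-binding partner of STAT2, the sets were apart at 75.6, 72.9 and 70.9 TPM against 55.1, 34.4 and 42.6, but the difference of 0.74 stayed under the minimum. The sets overlapped for the other 10, among them Jak1 at 0.13, Tyk2 at 0.00, Irf3 at -0.02 and Irf1 at 0.15 on the log2 scale.

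Negative regulators of the pathway and sensors of foreign nucleic acid were also among the higher genes. Usp18, which removes ISG15 from proteins and restrains the type I receptor, stood at 120, 78.0 and 79.1 TPM in the high-tone libraries and at 48.0, 5.23 and 5.24 in sham 6, 3 and 4, a difference of 2.88 ± 1.01. Trim30a and Trex1 were higher by 2.40 ± 0.71 and 1.35 ± 0.38. Socs3, an inhibitor of cytokine signalling that other cytokines also induce, went the other way by -1.02 ± 0.82 with sets that overlapped, since sham 3 held 45.1 TPM and the other sham libraries 5.39 to 9.72. Of 19 sensors and adaptors tested 7 were higher, where 0.644% of all genes tested were. Dhx58 and Ddx58, which bind viral RNA in the cytoplasm, were higher by 1.92 ± 0.47 and 1.63 ± 0.53, and Zbp1, a sensor of Z-form nucleic acid, by 1.60 ± 0.44.

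The antiviral effectors gave the longest list, with 22 of 40 tested genes higher and a median difference of 1.24. The sets were apart upwards in 31 of the 40 and apart downwards in 1, Ifi27, at -0.41. Over all genes tested 0.644% were higher, and the sets were apart upwards in 4.89% and downwards in 1.72%. Ifit3 stood at 219, 125 and 69.8 TPM in sham 2, 5 and 1 and at 34.6, 6.51 and 4.19 in sham 6, 3 and 4, a difference of 3.49 ± 0.97. Its neighbour Ifit3b, whose window shown above shares a stretch with it, stood at 180, 99.7 and 35.2 TPM against 14.0, 6.13 and 3.25, a difference of 3.50 ± 0.86. Sham 6 lay between the others in both copies. Ifit2, of the same RNA-binding family, stood at 214, 131 and 133 TPM against 57.4, 10.1 and 5.05, a difference of 3.30 ± 1.0. Ifi44 stood at 189, 86.2 and 94.4 TPM against 56.4, 4.94 and 3.59, a difference of 3.33 ± 1.21. Mx1, a GTPase that blocks viral ribonucleoproteins, stood at 87.5, 76.4 and 38.6 TPM against 21.6, 5.73 and 3.38, a difference of 2.89 ± 0.79. Sham 3 and sham 4 held the lowest values of each of these 5 genes, and sham 6 more than either.

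Families that modify RNA or proteins also held higher genes. Over all genes tested 0.644% were higher and 4.89% had sets apart upwards. Of 6 oligoadenylate synthetases tested, which activate the degradation of viral RNA, 3 were higher. Oas3 stood at 108, 70.6 and 85.9 TPM in the high-tone libraries and at 57.3, 6.24 and 8.78 in sham 6, 3 and 4, a difference of 2.45 ± 0.95. Oas2 had the largest difference of the family, 2.49 ± 1.10, but was not counted, since sham 6 with 112 TPM lay above sham 5 with 98.3. All 5 genes of ISG15 conjugation had sets that were apart, and 3 counted as higher, with Herc6, its ligase, higher by 1.90 ± 0.57 and Ube2l6, its conjugating enzyme, by 1.65 ± 0.48. All 7 Schlafen genes tested had sets that were apart and 5 counted as higher. Slfn4 was the most abundant of them, at 1559, 650 and 781 TPM against 437, 97.9 and 77.6, a difference of 2.62 ± 0.87. How reads shared by near-identical or related copies were counted is not given in the sources used here. The split between Ifit3 and Ifit3b, between Apol9a and Apol9b, and between Ifnl2 and Ifnl3 is therefore uncertain. The same holds within the Oas1, Schlafen, guanylate-binding protein and Reg3 families.

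**Figure D3:**
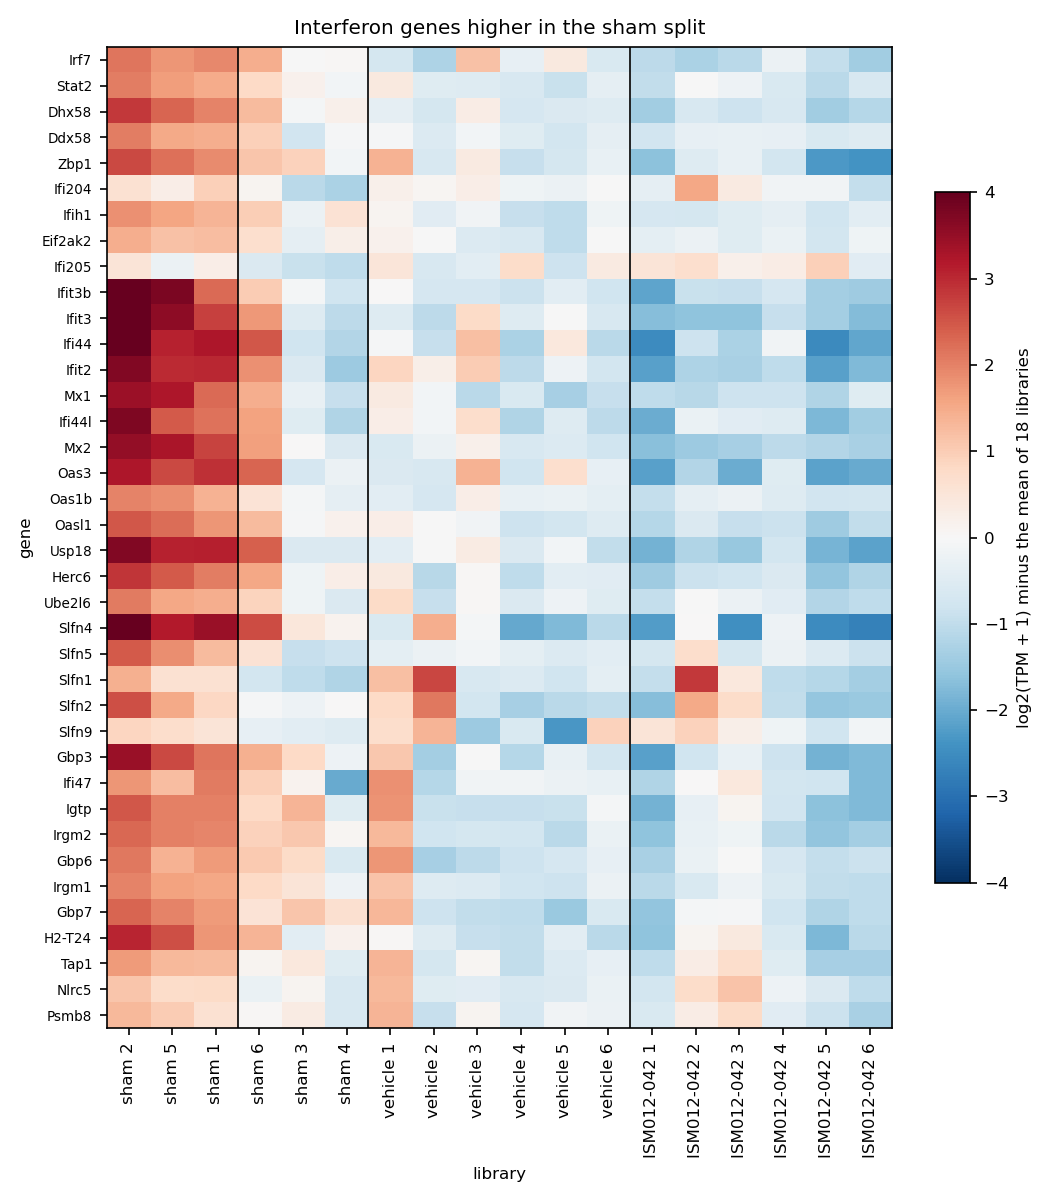
log2(TPM + 1) of 38 interferon genes counted as higher in the high-tone sham libraries (up to 7 per list), each minus its mean over 18 libraries, with colours capped at a difference of 4 in either direction. Columns are libraries, with sham ordered by tone, and lines divide the high-tone sham, low-tone sham, vehicle and ISM012-042 libraries. Sham 6 is intermediate in most genes, and vehicle 1 is high for the guanylate-binding proteins and Tap1.

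The GTPases of the guanylate-binding protein and immunity-related families, which attack vacuoles of intracellular pathogens and are classic targets of interferon gamma, ordered the low-tone libraries differently. Of 17 tested 8 were higher, where 0.644% of all genes tested were. All 17 differences were positive, and the median was 1.06. Their mean log2(TPM + 1) was 5.34 in sham 2, 4.86 in sham 5 and 4.74 in sham 1, and 3.82 in sham 6, 4.52 in sham 3 and 3.25 in sham 4, so that sham 3 stood above sham 6. For the antiviral effectors the order was the reverse, 5.60 in sham 6 and 4.50 in sham 3. Iigp1 stood at 22.1, 16.5 and 22.5 TPM in the high-tone libraries and at 4.10, 35.4 and 4.67 in sham 6, 3 and 4. Tgtp1 stood at 13, 9.25 and 11.8 TPM against 2.68, 16.3 and 3.05. In both genes the low-tone library sham 3 held the highest value of all 6. By contrast Gbp3 stood at 160, 92.4 and 64.6 TPM against 39.1, 24.9 and 11.9, a difference of 2.07 ± 0.61, with sets apart.

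Of 9 tested genes in a list of CXCR3 chemokine ligands and genes of the interferon gamma axis, 2 counted as higher, against 0.644% of all genes tested. Cxcl10, which attracts activated T cells through the receptor CXCR3, stood at 54.3, 72.9 and 20.3 TPM in sham 2, 5 and 1 and at 1.75, 19.8 and 5.43 in sham 6, 3 and 4, a difference of 2.63 ± 1.01. The sets were apart only narrowly, between sham 1 and sham 3, and sham 6 was lowest. Cd274, the checkpoint ligand PD-L1, was higher by 1.22 ± 0.41. Il18 had sets that overlapped, with 326 TPM in sham 3 and 304 in sham 4 against 62.3 to 162 in the other 4 libraries.

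Genes of MHC class I and the immunoproteasome, which present peptides to CD8 T cells, all leaned upwards, but 4 of 26 counted as higher. Their median difference was 0.55, and the sets were apart upwards in 14. Over all genes tested 0.644% counted as higher and 4.89% had sets apart upwards. The nonclassical H2-T24 was higher by 2.09 ± 0.65, the peptide transporter Tap1 by 1.41 ± 0.30, the class I regulator Nlrc5 by 1.13 ± 0.25 and the proteasome subunit Psmb8 by 1.07 ± 0.35. B2m, the shared light chain, stood at 2929, 2124 and 3268 TPM in the high-tone libraries and at 3298, 895 and 1307 in sham 6, 3 and 4. Sham 6 thus held the highest B2m of all sham libraries. None of 10 MHC class II genes counted as higher or lower, and no set was apart, with differences from 0.36 to 1.0.

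**Figure D4:**
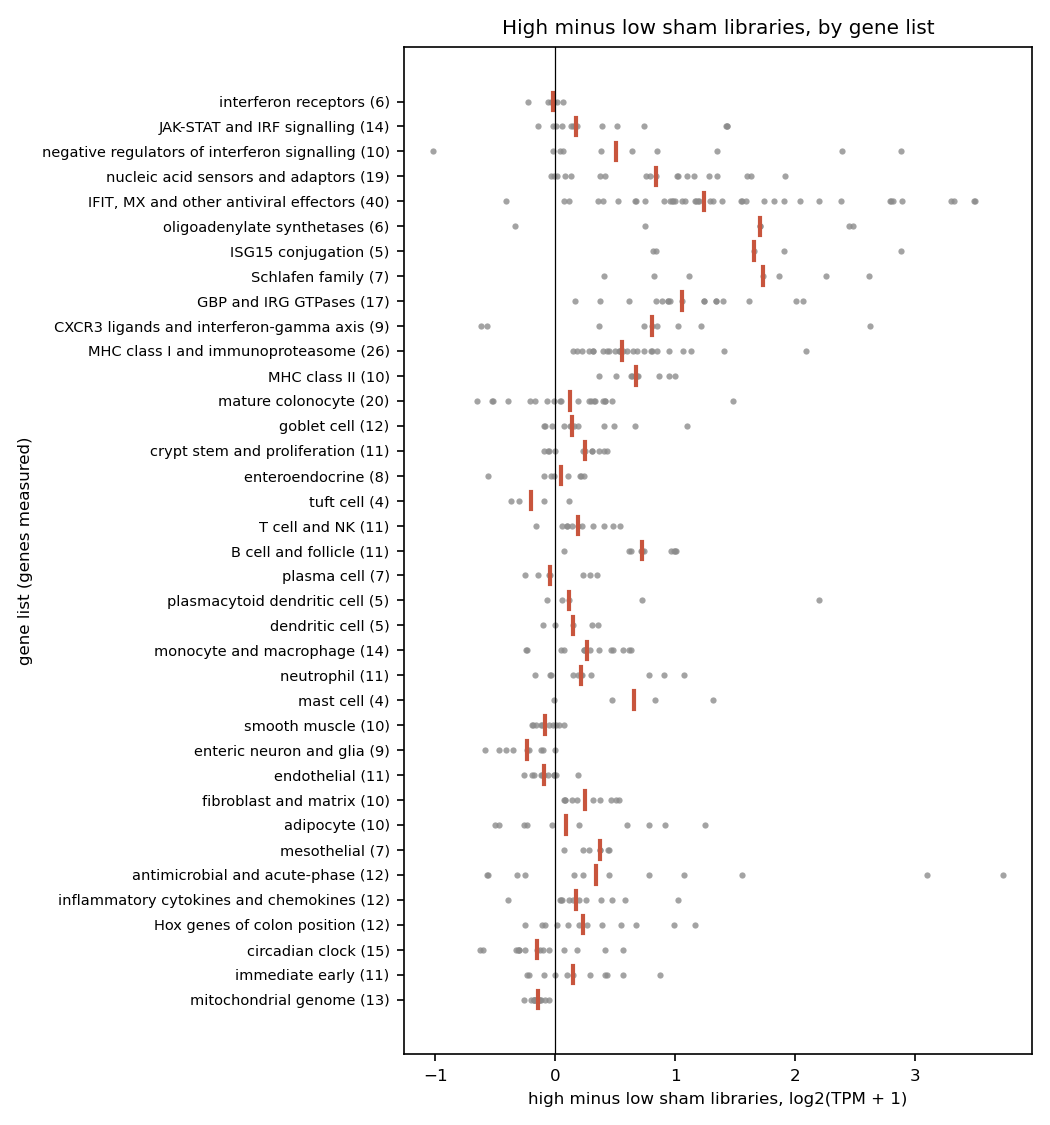
Difference between the 3 high-tone and 3 low-tone sham libraries on the log2(TPM + 1) scale for each tested gene (grey points) of 37 gene lists, with the median of each list in red and the number of genes in parentheses. Medians are 1.73 for the Schlafen genes, 1.71 for the oligoadenylate synthetases and 1.24 for the antiviral effectors, and -0.02 for the interferon receptors.

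Outside the interferon lists, the largest difference of all belonged to Reg3b (chr6:78370885-78373466), an antimicrobial lectin of epithelial cells. It stood at 60.6, 29.4 and 39.0 TPM in sham 2, 5 and 1 and at 8.86, 1.16 and 0.478 in sham 6, 3 and 4, a difference of 3.74 ± 0.89. Reg3g, its close relative that acts on Gram-positive bacteria, stood at 31.9, 21.8 and 29.0 TPM against 9.88, 1.49 and 0.308, a difference of 3.10 ± 0.92. Both genes followed the tone in sham, with sham 6 again between the others. Both were far higher in colitis than in any sham library at the median, with 2629 TPM of Reg3b in vehicle and 1332 in ISM012-042, and 302 and 99.4 TPM of Reg3g. The other 10 tested antimicrobial and acute-phase genes did not count as higher or lower. Among them Saa3, an acute-phase protein, stood at 12.4, 5.42 and 28.0 TPM against 16.7, 2.61 and 0.522, with sets that overlapped.

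Several of the remaining 32 genes are known interferon targets that the lists did not hold. Ddx60, a helicase that aids RNA sensing, stood at 241, 168 and 164 TPM in the high-tone libraries and at 108, 14.6 and 33.6 in sham 6, 3 and 4, a difference of 2.28 ± 0.83. Trim30d, Apol9b, Apol9a and Ly6e were higher by 2.62 ± 0.81, 2.58 ± 0.98, 2.47 ± 0.89 and 2.09 ± 0.78. A different kind of RNA was also among them. The small nucleolar RNA gene Snord118 stood at 68.7, 3.0 and 35.3 TPM against 2.83 and 0.514 in sham 6 and 3, and was listed at 0 in sham 4. Its sets were barely apart, and the SE of 1.37 was large beside the difference of 3.59. The histone gene Hist1h2ac stood at 1.60, 1.56 and 1.75 TPM in the high-tone libraries and was listed at 0 in all 3 low-tone ones. These transcripts mostly lack poly(A) tails, and how the libraries selected RNA is not given in the sources used here.

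The lower side held Mt2 alone (chr8:94172618-94173567), a metal-binding metallothionein that zinc and glucocorticoids induce. It stood at 55.0, 97.9 and 27.8 TPM in sham 2, 5 and 1 and at 116, 173 and 133 in sham 6, 3 and 4, a difference of -1.37 ± 0.54. Its median in vehicle was 278 TPM. The next genes on this side had sets apart but differences under the minimum. They were Ackr4, an atypical chemokine receptor, at -0.82 ± 0.26, Calb2, the neuronal calcium-binding protein calretinin, at -0.74 ± 0.33, Rab3a, of synaptic vesicles, at -0.67 ± 0.15, and Tac1, the precursor of substance P, at -0.67 ± 0.41. Uchl1, a pan-neuronal enzyme, differed by -0.58 ± 0.30. All 9 tested genes of the list of enteric neurons and glia had differences below 0, with a median of -0.24. Only Uchl1 had sets that were apart, where 1.72% of all genes tested had sets apart downwards. The mean log2(TPM + 1) of that list was 2.01, 1.64 and 2.35 in the high-tone libraries and 2.60, 2.12 and 2.11 in sham 6, 3 and 4, so the sets overlapped in the list as a whole. The summed TPM of its 10 genes was 33.7 to 58.2 in the high-tone and 57.5 to 66.5 in the low-tone libraries, none was listed at 0 throughout, and the part of nerve tissue in these differences was not tested.

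Markers of other cell types mostly did not count as higher or lower. No gene counted as higher or lower in the lists of mature colonocytes, goblet cells, crypt and proliferating cells, T cells, plasma cells, dendritic cells, macrophages, neutrophils, muscle, vessels, fibroblasts or mesothelium. Differences still leaned upwards in all 10 fibroblast genes, all 7 of mesothelium, 12 of 14 of macrophages and 10 of 11 of T and NK cells. The share of all genes tested with a difference above 0 is not given here, for these lists or any other. Among the mesothelial genes only Krt19 had sets apart, at 2913 to 3191 against 2224 to 2441 TPM. It was far more abundant than Msln, at 2.12 to 7.64 TPM in sham, so Krt19 may not measure that cell type. They were above 0 in only 3 of 10 muscle and 2 of 11 vessel genes. Sets were apart upwards in 2 macrophage and 2 crypt genes, in at most 1 of each other list here, and in 4.89% of all genes tested. No set was apart downwards in these lists. B cell genes leaned upwards in all 11 tested, with a median of 0.72, and none counted as higher. The summed TPM of the 12 B cell genes in the table was 114 in sham 2, 74.6 in sham 5 and 17.2 in sham 1, against 26.7, 22 and 48.9 in sham 6, 3 and 4, and none was listed at 0 in all sham libraries. The sets overlapped, with sham 1 lowest, so the B cell level moved with sham 2 and sham 5 rather than with the whole high set, and its part in the results was not tested. Among 5 tested genes of plasmacytoid dendritic cells, the main producers of type I interferon, only Bst2 was higher, by 2.20 ± 0.76, and it is also an interferon target on most cells. The summed TPM of the 9 genes of that list in the table was 2214 to 2617 in the high-tone and 1468 to 2881 in the low-tone libraries. Nearly all of that sum is Klk1, at 2040 to 2319 and 1395 to 2817 TPM, so it does not measure the cell type. Siglech, which defines that cell type in mice, lay at 0.287, 0.333 and 0.651 TPM in the high-tone libraries and at 1.06, 0.0930 and 0.707 in sham 6, 3 and 4. The mucosal mast cell protease Mcpt1 was higher by 1.31 ± 0.42. Mcpt2, another protease of these cells, stood at 5.16, 3.33 and 2.79 TPM in sham 2, 5 and 1 and at 1.27, 1.28 and 2.45 in sham 6, 3 and 4, a difference of 0.83 ± 0.29 that falls short of the minimum. Of 4 tested mast cell genes 2 had sets apart upwards, where 4.89% of all genes tested did. The sets overlapped for Cma1, with a difference of 0.48 ± 0.55, and for Kit, at -0.01. The summed TPM of the 8 mast cell genes in the table was 26.2 to 34.0 against 13 to 29.4, of which Kit, the receptor for stem cell factor, gave 12.7 to 19.4 and 7.35 to 21.7. The part of mast cells in the results was not tested.

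Among 12 tested genes that mark position along the colon, none counted as higher or lower, and 9 had differences above 0. Sets were apart in 1, Hoxb7, where 4.89% of all genes tested had sets apart upwards. Hoxb7 stood at 4.56, 3.88 and 4.04 TPM in sham 2, 5 and 1 and at 3.85, 1.12 and 0.701 in sham 6, 3 and 4, a difference of 0.99 ± 0.46. Hoxb13, a marker of the distal colon, varied widely with sets that overlapped. It stood at 218 TPM in sham 2 and 230 in sham 5 but 16.1 in sham 1, and at 238 in sham 3 and 288 in sham 4 but 9.05 in sham 6. Fabp2, an intestinal fatty acid carrier, was high in the samples of low Hoxb13, at 1311 TPM in sham 1 and 1069 in sham 6 against 23.7 to 199 in the other 4. Each set thus held 1 library of low Hoxb13. The share of TPM in mitochondrial genes was 29.8%, 35.0% and 31.2% in the high-tone libraries and 34.8%, 42.6% and 29.4% in sham 6, 3 and 4, and all 13 mitochondrial genes had differences below 0, the most negative at -0.26. Scaling by median ratios left 90 genes higher and leaving out mitochondrial genes left 88.

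Most of the 91 genes stood lower in the colitis libraries than in the high-tone sham libraries. In 69 of the 91 genes every vehicle library lay below all 3 high-tone sham libraries, and in 70 every ISM012-042 library did. Over all genes tested the same held for 809 genes (5.73%) and 471 genes (3.33%). The rule chose the 91 genes for high values in those 3 sham libraries, so nothing is read from the larger share. The vehicle median lay within the range of the low-tone sham libraries in 35 genes and below that range in 45. The ISM012-042 median lay below it in 55. The shares of all genes tested with medians in these positions are not given here, so nothing is read from these counts. Slfn4 had medians of 39.4 TPM in vehicle and 13.3 in ISM012-042, against a lowest sham value of 77.6. Usp18 had medians of 6.86 and 1.92 TPM, against a lowest sham value of 5.23. These medians are descriptions, since the 91 genes were chosen on the sham values.

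Whether the same genes follow the tone in samples that did not choose them was tested in the 12 colitis libraries. The model fitted each gene on the mean log2(TPM + 1) of the 4 ranking genes with a term for the group, in limma with Benjamini-Hochberg adjustment over all genes. The tone there ran from 4.29 to 5.42 in vehicle and from 2.87 to 4.23 in ISM012-042, while in sham it ran from 5.27 to 9.01, so the ranges barely met. No gene passed an adjusted p of 0.05 in either direction, and the smallest adjusted p was 0.211, for Ifi44. At an unadjusted p under 0.05, 49 genes had a positive slope (0.347%) and 111 a negative slope (0.786%).

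Of the 91 genes higher in the high-tone sham libraries, 76 had a positive slope in colitis, or 83.5%, where 28.5% of all genes tested did. None of the 91 passed the adjusted threshold. At an unadjusted p under 0.05, 20 had a positive slope and 0 a negative one. These 20 are 22% of the 91 genes and 40.8% of the 49 genes with a positive slope at that level. The median slope was 0.42 over the 91 genes and -0.12 over all genes, in log2 units per log2 unit of tone. With median-ratio scaling the median over all genes moved to -0.01, by over 0.1, and 80 of the 90 genes then called higher had a positive slope. The share of all genes with a positive slope under that scaling is not given here, and the 28.5% does not stand for it. The 59 genes of the interferon lists held 53 positive slopes and 18 at an unadjusted p under 0.05, and the other 32 held 23 and 2. These genes are targets of shared regulators and are not independent of each other.

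**Figure D5:**
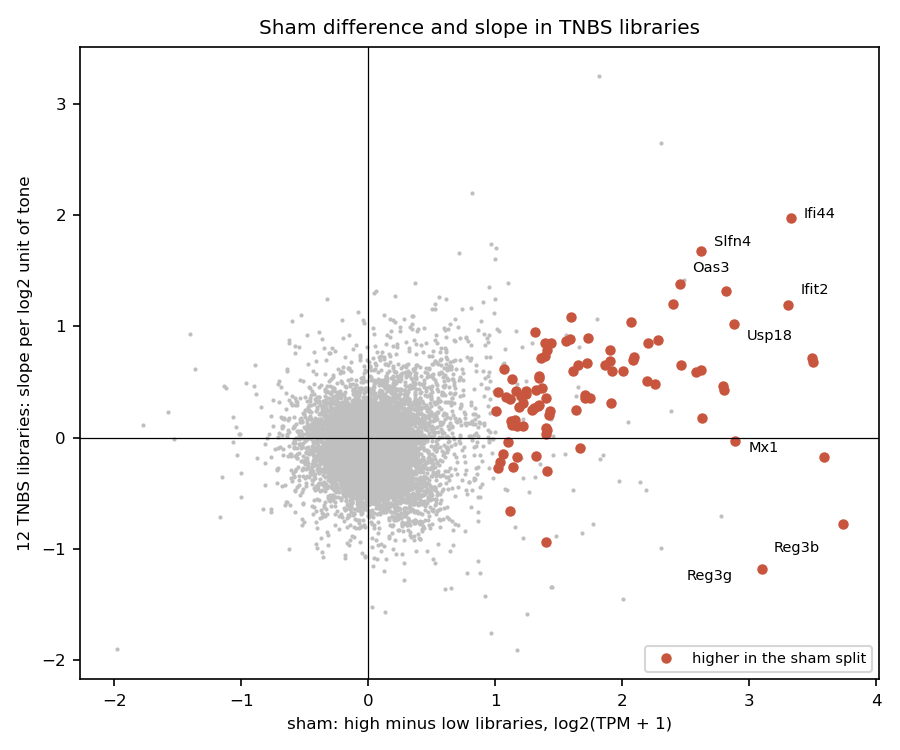
For each of 14125 genes, the difference between high-tone and low-tone sham libraries (x axis, log2(TPM + 1)) against the slope on interferon tone in 12 colitis libraries (y axis, log2 units per log2 unit of tone), with the 91 genes higher in sham in red. Of the red points 76 lie above 0, while Reg3b and Reg3g lie to the right and below 0.

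Ifi44 had the steepest slope among the interferon genes named, 1.97 ± 0.30 (SE, n = 12, limma adjusted p = 0.211). It lay between 3.22 and 22.8 TPM in vehicle, with a median of 6.67, and between 0.740 and 8.34 TPM in ISM012-042, with a median of 2.34. The next by p were Oas2 at 1.42 ± 0.27, Usp18 at 1.02 ± 0.19 and Oas3 at 1.39 ± 0.33. Not every gene that tracked the tone in sham did so in colitis. Mx1 had a slope of -0.03 ± 0.34, Reg3b of -0.78 ± 2.06 and Reg3g of -1.18 ± 1.5. Stat2, at 0.24 ± 0.29, had an error as large as its slope. On the negative side the smallest p belonged to Spdef (-1.20 ± 0.33) and Muc2 (-0.91 ± 0.27), of goblet cells, with Etv5 (-1.36 ± 0.38) and Angptl6 (-0.62 ± 0.19), and in sham none of these 4 had sets that were apart.

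The groups of colitis libraries were also compared with each other. Within vehicle 67 of the 91 genes had a positive slope, within ISM012-042 82, and in both 63. Over all genes the share was 14.1% in vehicle and 63.2% in ISM012-042. The difference of the slope between the groups passed an adjusted p of 0.05 for 0 genes in limma, and 167 genes (1.18%) had an unadjusted p under 0.05. With 6 libraries per group, each slope within a group rests on few points.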

How the data were processed

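RNA was measured in 18 mouse colon samples, and the authors deposited TPM for 35976 gene symbols per library. Per the submitters' processing notes the build was mm10 and the software DRAGEN 4.0.3, whose role is not stated. The annotation, strandedness and way of counting were not given in the sources used here. Because TPM is relative to all transcripts of a library, abundant mitochondrial RNA lowers every other value, and the depth is lost.

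Groups and replicate numbers come from the sample titles. The ranking, the genes of the ranking and the 38 gene lists (486 genes, 481 in the table, 416 tested) were chosen with earlier results of these data known. Values were taken as log2(TPM + 1), for 14129 genes with at least 1 TPM in at least 6 of 18 libraries, of which 14125 were not used by the ranking. Slopes came from limma 3.58.1 (R 4.3.3) with trend and robust settings, and the fit was tested on simulated data. No 2 libraries were identical.

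Genes named in the text were drawn, by rule and not all printed, from the 10 genes with the most positive and the 10 with the most negative difference whose sets were apart and a mean of at least 5 TPM, up to 4 genes per list, the ligands, receptors and signalling genes, and the 4 slopes of smallest p per direction. Muc2 and Slc26a3 fall under the list rule. B2m, Iigp1, Tgtp1, Il18, Ifi27, Hoxb13, Siglech, Ddx60, Trim30d, Apol9a, Apol9b, Ly6e, Hist1h2ac and Rtp4 fall outside it and were named after their values were seen. RefSeq GRCm38.p6 held 32501 of the symbols and gave coordinates (1-based) and promoter windows. Alternatives were pseudocounts of 0.1 and 5, other filters and scalings, a minimum difference of 0.58 or none, a wider tone, covariates, the replicate number as a block, array weights, plain empirical Bayes, no group term, and leaving out libraries. A result on a signalling gene is not reported here.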

Additional observations from a re-analysis of the deposited data

Results flagged for a closer look

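Of 81 sets of 6 values checked for a sample far from the others of its group, over 26 genes and the tone, 1 stood out, and none did in sham. Tac1, the precursor of substance P, was at 6.01 on the log2(TPM + 1) scale (63.5 TPM) in ISM012-042 replicate 2, and its gap to the nearest library was 0.654 of the range of the group. Chance flags about 1 in 20 such sets. Tac1 had lower values in the high-tone sham libraries, and that comparison does not use this library.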

How the results depend on the processing

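The sham counts were 91 genes higher and 1 lower. The count of higher genes kept to within 1.5 times of 91 under pseudocounts of 0.1 and 5 (130 and 65) and both other filters (97 and 76). It also did so under median-ratio scaling (90) and without mitochondrial genes (88). The wider tone gave the same sets of libraries, so its count of 91 was fixed in advance. The lower count moved to 7 with a pseudocount of 0.1 and to 4 without mitochondrial genes. With a minimum difference of 0.58 the counts were 198 and 18, and with none 691 and 243. Leaving out each sham library in turn gave 92 to 237 genes higher (237 without sham 6, 161 without sham 1) and 4 to 60 lower (60 without sham 6, 14 without sham 1, 9 without sham 5, 7 without sham 3, 6 without sham 2 and 4 without sham 4), where fewer libraries make sets that do not overlap more common. Of 257 recomputed sham differences of named genes 4 moved by more than their spread, all with a pseudocount of 5, and none changed sign.

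The slope fit had 0 passing genes in either direction under most alternatives. Median-ratio scaling gave 1 positive gene, Usp18 (limma adjusted p = 0.0420), which was among those higher in sham. Without the group term 6 passed, Rtp4, Ifit2, Ifi44, Oas2, Oas3 and Usp18, of which 5 were among those higher in sham, and that slope includes the difference between the groups. The 20 sham genes with a positive slope at an unadjusted p under 0.05 became 34 with median-ratio scaling, 31 without the group term, 58 with the wider tone, which contains many of these genes, and 8 without the 2 libraries farthest in tone. Leaving out each colitis library in turn gave 15 to 22. Over all genes the positive and negative slopes at that level were 49 and 111, but 813 and 1224 with median-ratio scaling, 351 and 1925 without mitochondrial genes, and 349 and 301 with no filter; the cause was not tested. The slopes of 8 named genes kept their sign. The median slope over all genes was -0.12, but 0.54 with the wider tone; the cause was not tested.

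Replicate numbers did not pair the colitis libraries: the correlation of deviations between same-numbered libraries ran from -0.38 to 0.61, and 2 of 6 vehicle libraries matched best with their own number. With the number as a block 0 genes passed, and 14 of the 91 had a positive slope at an unadjusted p under 0.05. The depth of the libraries is unknown, which limits every statement on values near 1 TPM, the ligands above all.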

Other observations

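Further genes differed widely among the sham samples without following the interferon tone. Adipocyte genes separated sham 2 and sham 6 from the rest. Cfd, the adipocyte protease adipsin, stood at 238 TPM in sham 2, 2.25 in sham 5 and 24.5 in sham 1, and at 772 in sham 6, 0.10 in sham 3 and 0.722 in sham 4. Adipoq, the hormone adiponectin, stood at 76.4, 1.67 and 6.29 TPM and at 298 in sham 6, and was listed at 0 in sham 3 and sham 4. Dbp, a circadian clock output factor, stood at 70.6 and 73.5 TPM in sham 2 and sham 5 and at 90.6 and 101 in sham 3 and sham 4, but at 18.4 in sham 1 and 38.1 in sham 6. Retnlb, a goblet cell lectin, had the opposite order, with 4177 TPM in sham 1 and 2777 in sham 6 against 60.8 to 546 in the other 4 libraries. Cry1, a repressor of the clock, also had its highest values in sham 1 and sham 6, at 24.9 and 20.0 TPM, against 3.38 to 7.58 in the other 4.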
